A study of Mus musculus with 9 samples.

Results

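The 9 genes described here carry transforming growth factor beta (TGF-beta) signals: the ligand Tgfb1, its receptors Tgfbr1 and Tgfbr2, the signal carriers Smad2, Smad3 and Smad4, the inhibitor Smad7 and the repressors Ski and Skil. They were chosen by symbol as parts of this pathway, and all 9 were found among the 23366 gene symbols of the table. The RNA was that of bulk CD8+ T cells which had infiltrated B16F10 melanomas, a transplantable tumour line, in C57BL/6 mice, and it was amplified by an adapted SMART-Seq 2 protocol and sequenced. The IL27ra KO group, from mice without the interleukin 27 receptor chain IL27ra, had 4 libraries, and the wild type (WT) group had 5. The ages of the mice, the part of the gene that was disrupted and the sex of the animals are not stated by the labels. Values are FPKM, a fragment count set against transcript length and library size, scaled between libraries by the authors, so that levels of different genes are set per length.

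TGF-beta is made in a latent form and has to be released before it acts. The active ligand binds the type II receptor Tgfbr2, which recruits and phosphorylates the type I receptor Tgfbr1, and Tgfbr1 in turn phosphorylates Smad2 and Smad3. These join Smad4, enter the nucleus and change transcription, while Smad7 blocks the receptor and Ski and Skil hold Smad targets silent. In T cells TGF-beta is known for restraining cytotoxic genes and for inducing Itgae, a subunit of the integrin that holds CD8+ T cells in epithelial tissue.

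The spacing of low values implied between 1730000 and 4100000 fragments per library, an estimate, since the number of reads is not given with the table. The targeted gene Il27ra had 4.09, 6.50, 5.62 and 7.80 FPKM in IL27ra KO replicates 1 to 4, against 25.7, 15.2, 14.4 and 15.8 FPKM in WT replicates 1, 3, 4 and 5. In the library labelled WT replicate 2 the level was 5.14 FPKM, which falls among the IL27ra KO values. With all 9 libraries the log2 change of -1.10 (SE 0.34) missed the threshold (limma, adjusted p = 0.0996). Without the library labelled WT replicate 2 it was -1.42 and passed (limma, adjusted p = 0.00349). All 12 CD8 T cell markers looked up were present. Their summed level was 481 to 1292 FPKM in IL27ra KO libraries and 1057 to 1692 FPKM in WT libraries. Of the 12, 2 passed as lower in IL27ra KO and 0 as higher. All 12 log2 changes were negative, with a median of -0.76. An unadjusted p under 0.05 was reached by 8 of them (limma), against 15.1% of all genes. All 15 macrophage and monocyte markers were higher in IL27ra KO, with sums of 341 to 1089 FPKM in IL27ra KO and 20.1 to 201 FPKM in WT. IL27ra KO replicate 4 had the lowest macrophage sum of its group (341 FPKM) and the highest CD8 T cell sum (1292 FPKM). Of 7 melanoma markers 0 passed, with sums of 541 to 1274 FPKM in IL27ra KO and 354 to 1162 FPKM in WT. All 7 melanoma changes were positive, with a median of 0.55, and 2 had an unadjusted p under 0.05 (limma). The lowest sum, 354 FPKM, was that of the library labelled WT replicate 2, where 6 of these markers had their lowest level. The B cell marker Ms4a1 and the neutrophil markers Mpo and Retnlg were listed at 0 in every library, but other markers of these cells were detected. The 4 B cell markers summed to 0.97 to 3.58 FPKM in IL27ra KO and 0.37 to 1.74 FPKM in WT. The 6 neutrophil markers summed to 6.92 to 11.3 FPKM in IL27ra KO and 3.81 to 8.79 FPKM in WT. Of 6 dendritic cell markers 4 were tested and 2 passed as higher in IL27ra KO, against 3.13% of all genes. Of these 4 changes 3 were positive and 1 was negative. The 6 summed to 91.0 to 135 FPKM in IL27ra KO and 64.9 to 129 FPKM in WT. Among tested markers of CD4 and regulatory T cells (3), NK cells (1) and stroma and vessels (1), 0 passed. In bulk libraries, fewer cells of a type and less RNA per cell cannot be told apart.

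None of the 9 genes passed the test between IL27ra KO and WT (limma on log2(FPKM + 1), Benjamini-Hochberg adjusted p under 0.05 over 10374 genes), against 4.24% of all genes tested. At an unadjusted p under 0.05 the count was 1 of 9, against 15.1% of all genes. The gene was Tgfbr1, with a mean of 5.01 ± 1.65 FPKM in IL27ra KO (SD, n = 4) and 2.39 ± 0.72 FPKM in WT (SD, n = 5). The median log2 change of the 9 was 0.16, against 0.02 over all genes tested.

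**Figure D1:**
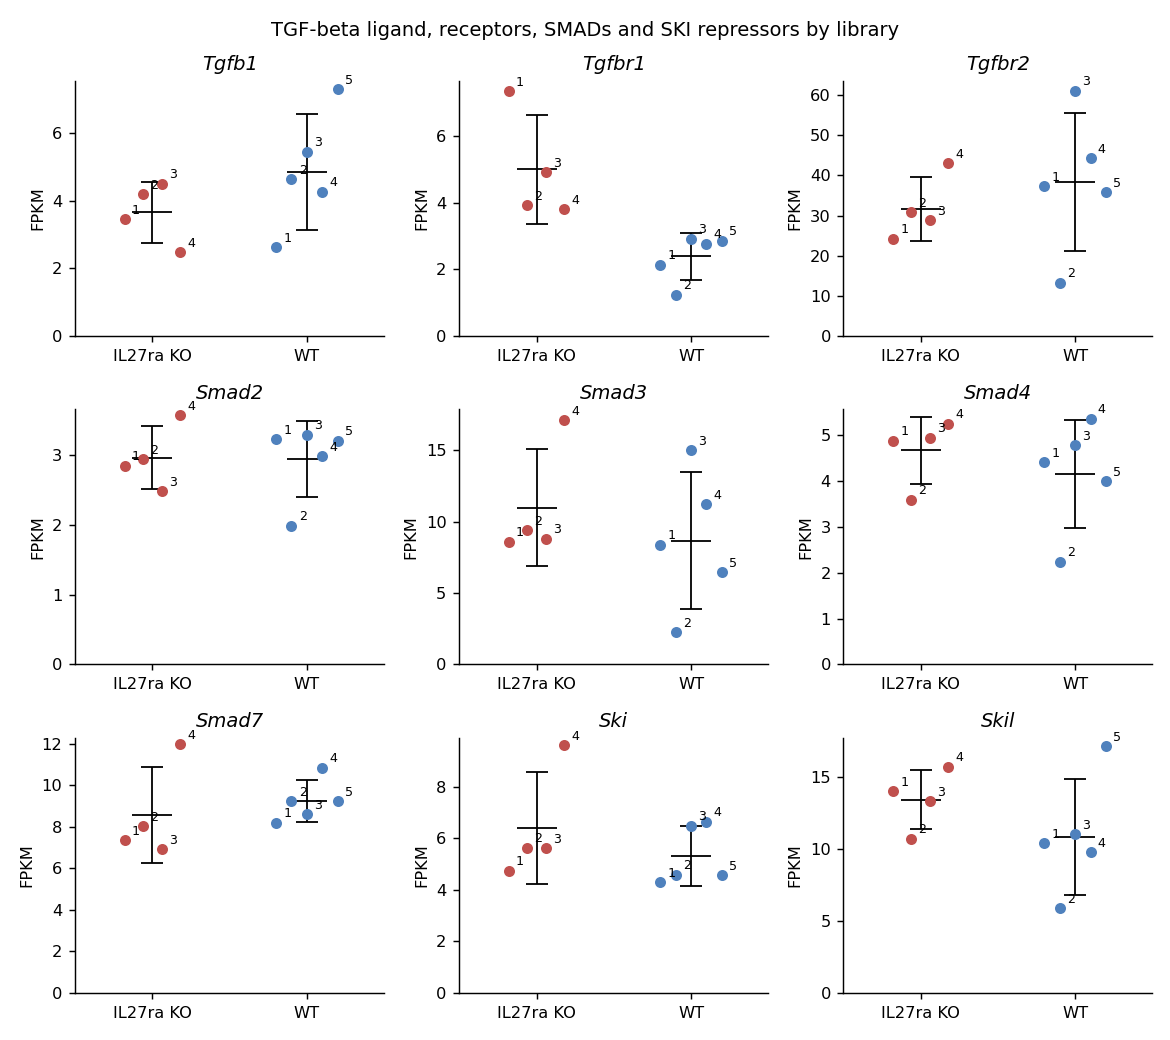
FPKM of each of the 9 genes (vertical axes, from 0) in the IL27ra KO and WT libraries, numbered by replicate, with horizontal bars at the mean and error bars of 1 SD (n = 4 and n = 5). For Tgfbr1 the IL27ra KO points, 3.81 to 7.36 FPKM, lie above all WT points, 1.24 to 2.92 FPKM; for the other 8 genes the groups overlap.

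Tgfb1, the ligand, had 3.46, 4.19, 4.51 and 2.47 FPKM in IL27ra KO replicates 1 to 4, against 2.62, 4.63, 5.45, 4.27 and 7.30 FPKM in WT replicates 1 to 5. The groups overlapped, with the lowest value in IL27ra KO replicate 4 and the highest in WT replicate 5. The difference of -0.30 log2 units did not pass (95% interval -0.82 to 0.22; limma, adjusted p = 0.638).

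Tgfbr1, the type I receptor kinase, had 7.36, 3.93, 4.93 and 3.81 FPKM in IL27ra KO replicates 1 to 4, against 2.14, 1.24, 2.92, 2.78 and 2.87 FPKM in WT replicates 1 to 5. Every IL27ra KO library was above every WT library, as for 4.26% of all genes tested, and the groups of 6.73% did not overlap in one direction or the other. The log2 change of 0.82 (SE 0.23, 95% interval 0.31 to 1.32) missed the threshold (limma, adjusted p = 0.0732). It did not pass in any fit that left out 1 library, where it was 0.65 to 0.91 (adjusted p = 0.0572 to 0.284). Without the library labelled WT replicate 2, the lowest of the 9, it was 0.68 (adjusted p = 0.0955). Tgfbr1 did pass with weights for library quality (0.75, limma, adjusted p = 0.0328) and with 2 of the rescalings described below.

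Macrophage and monocyte markers moved with Tgfbr1 between the groups. Their summed levels were 932, 880, 1089 and 341 FPKM in IL27ra KO replicates 1 to 4, against 20.1, 201, 22.3, 70.4 and 106 FPKM in WT replicates 1 to 5. IL27ra KO replicate 4, with the lowest marker sum of its group, also had the lowest Tgfbr1 of its group. Its 3.81 FPKM was close to the 3.93 FPKM of replicate 2, whose marker sum was 880 FPKM. IL27ra KO replicate 3, with the highest sum, had 4.93 FPKM, below replicate 1 at 7.36 FPKM. Within WT, the library labelled WT replicate 2 had the highest marker sum and the lowest Tgfbr1. When the level of these markers, which is tied to genotype here, was added to the model, the Tgfbr1 difference was 0.83 and did not pass (limma, adjusted p = 0.574). Summed CD8 T cell markers ran the other way, at 481, 681, 588 and 1292 FPKM in IL27ra KO replicates 1 to 4, against 1058, 1692, 1183, 1057 and 1324 FPKM in WT replicates 1 to 5. Which cells the Tgfbr1 RNA came from was not tested.

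**Figure D2:**
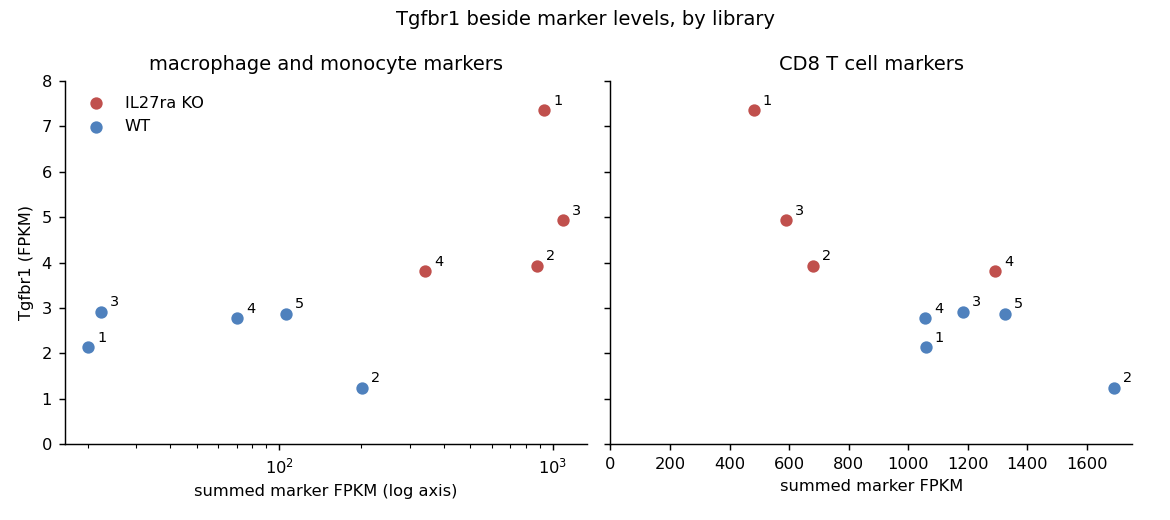
Tgfbr1 (FPKM, vertical axis) against the summed FPKM of 15 macrophage and monocyte markers (left, log axis) and of 12 CD8 T cell markers (right), 1 point per library, numbered by replicate. IL27ra KO libraries lie at 341 to 1089 FPKM of macrophage markers and WT libraries at 20.1 to 201 FPKM.

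Tgfbr2, the type II receptor that binds the ligand, was the most abundant of the 9 genes. It had 24.2, 30.8, 28.8 and 43.0 FPKM in IL27ra KO replicates 1 to 4, against 37.3, 13.3, 61.1, 44.3 and 35.8 FPKM in WT replicates 1 to 5. Both the lowest and the highest value were in WT libraries, those of replicates 2 and 3, so the IL27ra KO range lay inside the WT range. The log2 change was -0.15 (95% interval -0.90 to 0.60; limma, adjusted p = 0.900). It was -0.48 without the library labelled WT replicate 2 (adjusted p = 0.278) and 0.05 without WT replicate 3 (adjusted p = 0.967), so its direction rested on WT replicate 3.

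The receptor-activated Smad2 had 2.85, 2.95, 2.49 and 3.58 FPKM in IL27ra KO replicates 1 to 4, against 3.23, 1.99, 3.30, 2.99 and 3.21 FPKM in WT replicates 1 to 5. These groups differed by 0.01 log2 units (95% interval -0.39 to 0.42; limma, adjusted p = 0.985), and Smad2 had the smallest difference of the 9. Its sign turned when IL27ra KO replicate 4 (-0.06) or the library labelled WT replicate 2 (-0.08) was left out.

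Smad3, the other receptor-activated member, had 8.60, 9.43, 8.81 and 17.1 FPKM in IL27ra KO replicates 1 to 4, against 8.40, 2.25, 15.0, 11.2 and 6.48 FPKM in WT replicates 1 to 5. IL27ra KO replicates 1 to 3 were close together and replicate 4 was the highest of all 9 libraries, while the library labelled WT replicate 2 was the lowest. Smad3 differed by 0.44 log2 units (95% interval -0.38 to 1.26; limma, adjusted p = 0.663). The difference was 0.09 without the library labelled WT replicate 2 and 0.22 without IL27ra KO replicate 4 (adjusted p = 0.905 and 0.847). With both left out, an alternative chosen after the data were seen, it was -0.12 (adjusted p = 0.813).

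Smad4, the shared partner of the activated Smads, had 4.88, 3.59, 4.94 and 5.25 FPKM in IL27ra KO replicates 1 to 4, against 4.41, 2.24, 4.78, 5.36 and 3.99 FPKM in WT replicates 1 to 5. The groups overlapped and the library labelled WT replicate 2 was again the lowest. The log2 change was 0.16 (95% interval -0.31 to 0.63; limma, adjusted p = 0.809), and 0.0035 without that library.

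Tgfbr2 and Smad3 were the pair of the 9 genes with the highest correlation over the 9 libraries (Pearson r = 0.88, Spearman rho = 0.70), a description of libraries that share depth and cell make-up. The promoters of this pair, and that of Tgfbr1, the gene whose groups did not overlap, are shown for that reason. They are from RefSeq on GRCm38.p6, cover 250 bases before to 50 after the start of the gene, and are written 5′ to 3′ on the strand of the gene. Tgfbr1 has 2 listed starts, of which the first is shown. Capitals mark matches on either strand to CAGAC, a short form of the element that Smad3 and Smad4 bind, to GGCGC, a GC-rich Smad element, or to TTCNNNGAA, the palindrome of STAT factors, which act downstream of the interleukin 27 receptor.
Tgfbr1, chr4:47352972-47353271, plus strand: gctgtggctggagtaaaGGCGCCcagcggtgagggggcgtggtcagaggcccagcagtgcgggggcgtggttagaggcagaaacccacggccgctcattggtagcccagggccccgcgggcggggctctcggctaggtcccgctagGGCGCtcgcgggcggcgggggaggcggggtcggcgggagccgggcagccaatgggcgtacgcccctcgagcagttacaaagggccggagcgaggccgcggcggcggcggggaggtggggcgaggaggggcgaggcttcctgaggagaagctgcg
Tgfbr2, chr9:116175314-116175613, minus strand: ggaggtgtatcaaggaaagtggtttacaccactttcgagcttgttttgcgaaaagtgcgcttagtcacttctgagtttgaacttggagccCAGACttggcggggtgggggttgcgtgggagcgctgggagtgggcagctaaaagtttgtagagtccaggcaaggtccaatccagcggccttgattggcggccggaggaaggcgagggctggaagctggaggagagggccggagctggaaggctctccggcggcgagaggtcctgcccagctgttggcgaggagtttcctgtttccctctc
Smad3, chr9:63757945-63758244, minus strand: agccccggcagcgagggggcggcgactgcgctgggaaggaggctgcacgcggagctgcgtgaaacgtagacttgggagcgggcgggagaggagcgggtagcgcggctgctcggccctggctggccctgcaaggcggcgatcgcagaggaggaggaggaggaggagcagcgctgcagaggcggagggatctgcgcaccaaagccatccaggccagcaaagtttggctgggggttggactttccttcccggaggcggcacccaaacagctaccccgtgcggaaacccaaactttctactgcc
Matches were counted by where they start, so that overlapping ones, as in GGCGCC, count separately. The window of the first Tgfbr1 start held 3 matches to GGCGC and 0 to the other motifs, and its GC content was 74.7%. That of the second start, not printed, held 1 match to CAGAC and 0 to the others, at 52.0% GC. The Tgfbr2 window held 1 match to CAGAC and 0 to the others, at 59.0% GC. The Smad3 window held none of the 3 motifs, at 67.7% GC. The Tgfb1 and Ski windows, not printed, held 2 and 7 matches to GGCGC and 0 to the others. Of 32851 promoter windows of the same length, 49.6% held CAGAC, 36.9% held GGCGC and 8.30% held TTCNNNGAA, so these matches are common letters and not shown to be sites.

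Smad7, which blocks Tgfbr1 and is itself induced by TGF-beta, had 7.35, 8.04, 6.91 and 12.0 FPKM in IL27ra KO replicates 1 to 4, against 8.19, 9.22, 8.61, 10.9 and 9.23 FPKM in WT replicates 1 to 5. IL27ra KO replicates 1 to 3 lay below all WT libraries and replicate 4 above them all. The log2 change was -0.12 (95% interval -0.53 to 0.30; limma, adjusted p = 0.851) and -0.27 without IL27ra KO replicate 4 (adjusted p = 0.494). Its values varied least among the WT libraries, with a coefficient of variation of 11.0%, against 18.5% to 55.6% for the other 8 genes.

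Ski, a repressor of Smad targets, had 4.75, 5.64, 5.62 and 9.63 FPKM in IL27ra KO replicates 1 to 4, against 4.29, 4.59, 6.49, 6.65 and 4.58 FPKM in WT replicates 1 to 5. IL27ra KO replicate 4 stood above the other 8 libraries, whose groups overlapped. The log2 change was 0.21 (95% interval -0.27 to 0.68; limma, adjusted p = 0.742), and 0.02 without IL27ra KO replicate 4.

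Skil, which encodes SnoN, a relative of Ski that TGF-beta both degrades as protein and induces as RNA, had 14.0, 10.7, 13.3 and 15.7 FPKM in IL27ra KO replicates 1 to 4, against 10.4, 5.88, 11.0, 9.74 and 17.1 FPKM in WT replicates 1 to 5. The lowest and the highest value were both in WT, in the library labelled replicate 2 and in replicate 5. The log2 change was 0.34 (95% interval -0.19 to 0.88; limma, adjusted p = 0.589), 0.51 without WT replicate 5 (adjusted p = 0.331) and 0.16 without the library labelled WT replicate 2 (adjusted p = 0.745).

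Most of the extreme values came from 2 libraries. The library labelled WT replicate 2 was the lowest of all 9 for 6 of the 9 genes, Tgfbr1, Tgfbr2, Smad2, Smad3, Smad4 and Skil, and for 28.3% of all genes tested. IL27ra KO replicate 4 was the highest for 4 of the 9, Smad2, Smad3, Smad7 and Ski, and for 10.2% of all genes tested. With both libraries left out, 0 of the 9 genes passed (limma), and the differences ran from -0.63 for Tgfbr2 to 0.77 for Tgfbr1 (adjusted p = 0.0741 and 0.0502).

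In IL27ra KO libraries the order of mean levels was Tgfbr2, Skil, Smad3, Smad7, Ski, Tgfbr1, Smad4, Tgfb1 and Smad2, from 31.7 ± 8.01 FPKM to 2.97 ± 0.45 FPKM (SD, n = 4). In WT libraries it was Tgfbr2, Skil, Smad7, Smad3, Ski, Tgfb1, Smad4, Smad2 and Tgfbr1, from 38.4 ± 17.3 FPKM to 2.39 ± 0.72 FPKM (SD, n = 5). Tgfbr1 was thus sixth in IL27ra KO and last in WT, where it was below Smad2 in 5 of 5 libraries. Between neighbours in these orders the ranges of values overlapped in both groups, except between Tgfbr2 and Skil in IL27ra KO. Tgfbr2 was nonetheless above Skil within each library, 4 of 4 in IL27ra KO and 5 of 5 in WT.

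The balance between the genes was compared as 5 ratios within libraries. Tgfbr1 over Tgfbr2 averaged -2.45 ± 0.67 log2 units in IL27ra KO (SD, n = 4) and -3.42 ± 0.49 in WT (SD, n = 5). The groups overlapped through the library labelled WT replicate 2 (-2.67), which lay above IL27ra KO replicates 2 and 4 (-2.69 and -3.19). The difference of 0.97 did not pass (two-sided exact permutation p = 0.0476, adjusted p = 0.238 over the 5 ratios). Without that library it was 1.16, and the groups did not overlap (exact permutation p = 0.0286, adjusted p = 0.143). No ratio could pass by itself after adjustment over the 5. The smallest two-sided permutation p is 0.0159 with all 9 libraries, and 0.0286 was already the smallest without that library. A ratio that did not pass is therefore not shown to be equal between the groups. Smad7 over Smad3 averaged -0.30 ± 0.13 in IL27ra KO (SD, n = 4) and 0.26 ± 0.89 in WT (SD, n = 5). The WT values ran from -0.74 in replicate 3 to 1.65 in the library labelled replicate 2. The difference of -0.56 did not pass (exact permutation, adjusted p = 0.529). Without 1 library it ran from -0.81 to -0.21 (exact permutation, adjusted p = 0.143 to 0.786). The differences of Smad3 over Smad2 (0.43), Skil over Ski (0.13) and Tgfb1 over Tgfbr2 (-0.15) did not pass either (exact permutation, adjusted p = 0.529 to 0.825). With the library labelled WT replicate 2 left out, those of Skil over Ski and Tgfb1 over Tgfbr2 became -0.0041 and 0.18.

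**Figure D3:**
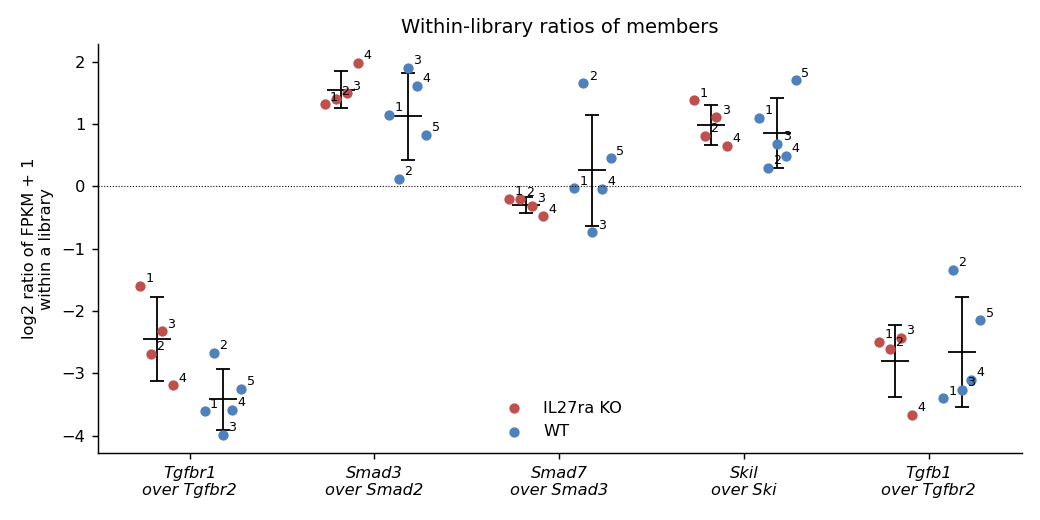
Log2 ratio of FPKM + 1 between 2 genes of the same library (vertical axis) for 5 pairs, IL27ra KO points left of WT points, numbered by replicate, with bars at the mean and 1 SD. Tgfbr1 over Tgfbr2 averages -2.45 in IL27ra KO and -3.42 in WT, and the spread of Smad7 over Smad3 in WT runs up to 1.65 in the library labelled replicate 2.

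How the libraries are scaled moved all 9 genes together. The median change of all genes was 0.02 as deposited, 0.29 with libraries rescaled to the same total and 0.65 with libraries scaled to the CD8 T cell markers. Relative to that median, the Tgfbr1 change was 0.80 as deposited, 0.77 with the same total and 0.75 with the CD8 T cell scaling. Its unshifted changes under the last 2 scalings, 1.07 and 1.40, passed (limma, adjusted p = 0.0307 and 0.0171). The ribosomal RNA gene Rn45s held 25.2% to 29.3% of the total in IL27ra KO libraries, against 53.8% and 50.8% in WT replicates 3 and 4 and 23.9% to 30.01% in the other WT libraries. With Rn45s left out of the total, an alternative chosen after the data were seen, the median of all genes was 0.07 and Tgfbr1 did not pass (0.85; limma, adjusted p = 0.166). The other 8 genes did not pass under the same-total or the CD8 T cell scaling (adjusted p = 0.249 to 0.951 and 0.0542 to 0.408). The unshifted differences of Tgfbr2 and Smad7, negative as deposited, were positive under both of these, and that of Tgfb1 was positive under the CD8 T cell scaling. Relative to the median, Tgfb1 differed by -0.32, -0.33 and -0.31 as deposited, with the same total and with the CD8 T cell scaling, and Smad3 by 0.42, 0.43 and 0.43.

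**Figure D4:**
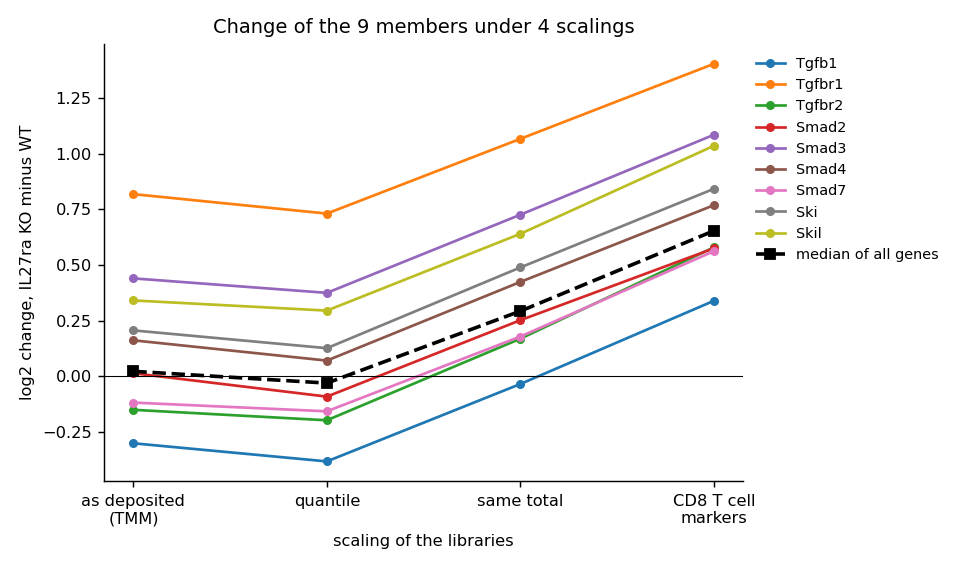
Log2 change of the 9 genes, IL27ra KO minus WT (vertical axis), under 4 scalings of the libraries (horizontal axis), with the median of all genes as a dashed line. The 9 lines follow the dashed line, which reaches 0.65 under scaling to CD8 T cell markers, and Tgfbr1 is the uppermost line throughout.

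The genes most like each of the 9 over the libraries, among up to 5722 genes of at least 5 FPKM on average, are given as a description by Pearson r of log2(FPKM + 1) over 9 libraries. Those most like Tgfbr1 were Setdb2 (r = 0.98) and Serp1 (r = 0.96). For Tgfbr2 they were Nup210 (r = 0.99) and Sipa1l1 (r = 0.98), and for Smad3 they were Slc35c1 (r = 0.99) and Ube4b (r = 0.97). Smad4 was most like Tspan14 and Cpsf1 (r = 0.98 and 0.97) and Smad2 most like Tgoln1 and Aim1 (r = 0.96 and 0.95). Smad7 was most like Cxcr3, a chemokine receptor of effector T cells, and Sh2b1 (r = 0.95 for each). Ski was most like Ccnd3, a cyclin of lymphocytes, and Crebbp, a histone acetyltransferase (r = 0.95 for each). Skil was most like Atp6v0a2 and Dtx3l (r = 0.93 for each) and Tgfb1 most like Crmp1 and Get4 (r = 0.90 for each). The genes compared share depth and cell make-up within each of the 9 libraries.

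Around the 9 genes, 5 lists of other pathway genes were examined, with 56 distinct genes tested. Of these, 5 were higher, 2 were lower and 49 did not pass (limma, adjusted p under 0.05), against 3.13% of all genes higher and 1.11% lower.

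Of 24 listed ligands and genes of latency and release, 6 passed the filter of a mean of 1 FPKM, and 2 of these 6 rose, with a median log2 change of 0.95. Thbs1 encodes thrombospondin 1, which can release latent TGF-beta. It had 12.5, 27.1, 60.1 and 10.9 FPKM in IL27ra KO replicates 1 to 4, against 0.10, 0.83, 0.98, 3.97 and 0.54 FPKM in WT replicates 1 to 5 (log2 change 3.53; limma, adjusted p = 0.0012). The groups did not overlap, and IL27ra KO replicate 3 was the highest. The other was Plaur, the receptor for urokinase, with a log2 change of 1.80. Plaur had 10.6, 18.5, 16.9 and 5.98 FPKM in IL27ra KO replicates 1 to 4, against 3.72, 5.68, 1.23, 2.44 and 1.91 FPKM in WT replicates 1 to 5, so the groups did not overlap (limma, adjusted p = 0.0086). IL27ra KO replicate 4, lowest of its group in macrophage markers, was also the lowest of its group for both genes. For Thbs1 it was close to replicate 1 (10.9 and 12.5 FPKM).

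Of 14 other receptors and coreceptors of the family, 11 were tested and 0 passed (limma; 3 at an unadjusted p under 0.05, against 15.1% of all genes). All 11 differences were positive, against 53.1% over all genes tested, with a median of 0.47, against 0.02. The library labelled WT replicate 2 was the lowest of the 9 for 7 of these 11 genes, and its part in their direction was not tested. Of 22 other Smads and their regulators, 17 were tested and 0 passed (limma; 1 at an unadjusted p under 0.05). Their differences ran from -0.51 to 0.45 with a median of 0.04.

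Of 16 genes that TGF-beta is known to induce in various cells, 11 were tested, of which 3 rose, 1 fell and 7 did not pass, with a median of 0.37. Tgfbi, a matrix protein named for its induction by TGF-beta, had 76.5, 47.7, 116 and 16.6 FPKM in IL27ra KO replicates 1 to 4, against 0.86, 15.0, 0.43, 7.96 and 7.34 FPKM in WT replicates 1 to 5 (log2 change 3.40; limma, adjusted p = 0.0116). Its lowest IL27ra KO value lay just above its highest WT value, and with IL27ra KO replicate 3 left out it did not pass (log2 change 3.01, adjusted p = 0.0520). Fn1, fibronectin, had 19.1, 53.4, 70.6 and 18.03 FPKM in IL27ra KO replicates 1 to 4, against 2.61, 2.02, 5.16, 4.64 and 2.16 FPKM in WT replicates 1 to 5 (log2 change 3.08; limma, adjusted p = 0.00083). Thbs1 stands on this list too, and for Tgfbi, Fn1 and Thbs1 alike IL27ra KO replicate 4 was the lowest of its group. For Fn1 (18.03 and 19.1 FPKM) and Thbs1 (10.9 and 12.5 FPKM) it was close to replicate 1. The macrophage marker sums of these 2 libraries were 341 and 932 FPKM. The library labelled WT replicate 2, with the highest macrophage sum in WT, was highest in WT for Tgfbi but lowest for Fn1.

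Nedd9, a scaffold protein of integrin signalling named after its values were seen, fell, to 9.39, 8.65, 9.60 and 14.2 FPKM in IL27ra KO replicates 1 to 4, against 18.5, 17.8, 21.9, 17.4 and 25.7 FPKM in WT replicates 1 to 5. The groups did not overlap (log2 change -0.90; limma, adjusted p = 0.0200). Its call was lost on leaving out IL27ra KO replicate 1, 2 or 3 or WT replicate 5 (adjusted p = 0.0563 to 0.0917), where the log2 change was -0.87 to -0.81. Rescaling the libraries to the same total or to CD8 T cell markers, which moves all genes, also ended the call (adjusted p = 0.208 and 0.603). Relative to the median of all genes the Nedd9 change was -0.92 as deposited and -0.89 and -0.84 under these scalings.

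Itgae, the CD103 integrin subunit, was named after its values were seen. It had 6.15, 9.47, 10.6 and 9.99 FPKM in IL27ra KO replicates 1 to 4, against 11.0, 0.23, 5.81, 4.23 and 1.65 FPKM in WT replicates 1 to 5. The WT values spread widely, from the library labelled replicate 2 at the bottom to replicate 1 at the top. The log2 change of 1.22 did not pass (limma, adjusted p = 0.251), and passed on scaling to CD8 T cell markers (1.76, adjusted p = 0.0170), which moves the median of all genes to 0.65. Relative to that median the Itgae change was 1.10 under that scaling and 1.19 as deposited.

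Of 15 genes that TGF-beta is known to lower in T cells, 14 were tested, of which 1 rose, 1 fell and 12 did not pass, with a median of -0.54. Prf1, the pore-forming protein perforin, had 7.69, 6.41, 8.62 and 16.1 FPKM in IL27ra KO replicates 1 to 4, against 41.4, 49.1, 27.8, 21.0 and 77.0 FPKM in WT replicates 1 to 5. It fell by 1.99 log2 units and the groups did not overlap (limma, adjusted p = 0.0047), beside summed CD8 T cell markers of 481 to 1292 FPKM in IL27ra KO and 1057 to 1692 FPKM in WT. On scaling to CD8 T cell markers, which moves the median of all genes to 0.65, Prf1 still passed (log2 change -1.28; limma, adjusted p = 0.0178). Klf2, a factor of circulating T cells, had 27.7, 27.4, 20.4 and 18.5 FPKM in IL27ra KO replicates 1 to 4, against 9.22, 7.76, 10.1, 15.0 and 8.01 FPKM in WT replicates 1 to 5. It rose by 1.17 log2 units and the groups did not overlap (limma, adjusted p = 0.0077). In the model with the macrophage level added, 0 of the 56 genes passed (limma; 1246 of all genes at an unadjusted p under 0.05). The log2 changes of Prf1 (-2.08, SE 0.83), Klf2 (1.20, SE 0.52) and Fn1 (2.75, SE 0.93) were about as large in that model, with wider errors. Those of Thbs1 (2.03, SE 1.06), Nedd9 (-0.54, SE 0.46) and Plaur (0.40, SE 0.72) were smaller, and that of Tgfbi was negative (-1.64, SE 0.60). Larger in that model were Smad3 (2.61, SE 0.63, against 0.44 without the macrophage level) and Itgae (4.08, SE 0.82, against 1.22). Neither passed (limma, adjusted p = 0.161 and 0.105). The part of macrophage RNA in the calls and in these changes was not tested.

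**Figure D5:**
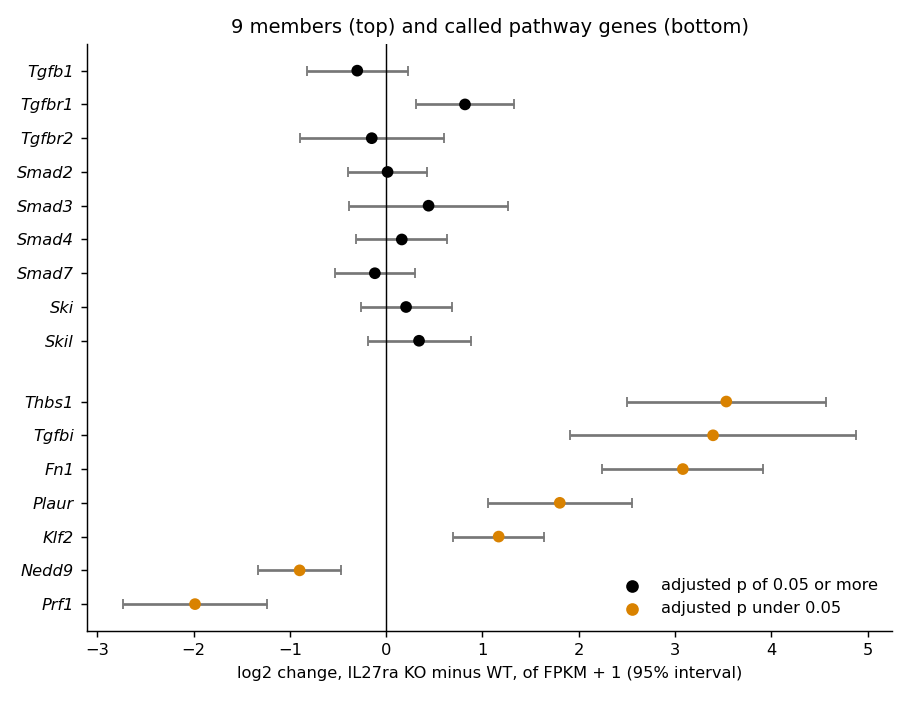
Log2 change of FPKM + 1, IL27ra KO minus WT (horizontal axis), with 95% intervals, for the 9 genes (top) and the 7 called genes of the pathway lists (bottom). The intervals of 8 of the 9 genes include 0, that of Tgfbr1 runs from 0.31 to 1.32, and the called genes range from -1.99 for Prf1 to 3.53 for Thbs1.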

How the data were processed

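The table deposited by the authors gives FPKM per gene, made with RSEM and TMM-normalized per the labels, for 9 SMART-Seq 2 libraries and 23366 symbols, with 0 columns of other samples. The submitters' processing notes name TopHat, RSEM, DESeq and mm9. TMM scaling rests on most genes being unchanged, so a shift of cell make-up moves all values of a library. The number of reads is not given. The spacing of low values in 3259 single-transcript genes (lengths from GENCODE M21, another build) gave 0.244 to 0.579 FPKM for 1 fragment in 1 kb, with 58.4% to 66.3% of low values at a whole multiple (tolerance 0.1), where an even spread would give 20%; too few for whole reads to be recovered.

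From these values, log2(FPKM + 1) was computed, 10374 genes averaging 1 FPKM or more were kept, and IL27ra KO was compared with WT by limma 3.58.1 in R 4.3.3 (eBayes with a trend, Benjamini-Hochberg, threshold 0.05). Ratios and Il27ra were compared by exact permutation over all 126 splits, whose smallest two-sided p is 0.0159. The scripts were tested on simulated data in which 200 of 10374 genes were shifted. Of shifts of 1, 2 and 3 log2 units, 44.5%, 94.0% and 98.0% were recovered. False calls made up 3.26%, 6.47% and 6.67% of the calls. The 9 genes differed by -0.30 to 0.82 log2 units, below the smallest simulated shift.

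The genes named are the 9 members, Il27ra, up to 3 passing genes of each pathway list by smallest p, and the 2 genes most like each member. Nedd9, Itgae, Foxp3, Lrrc32, Tgfb2, Tgfb3, Rn45s and the markers Ms4a1, Mpo and Retnlg lie outside that rule. Members and lists were chosen with earlier results of these data known. The labels do not state that libraries came from separate animals, so p-values measure the spread between libraries, which may be technical. Alternatives were pseudocounts of 0.1 and 5, other filters and scalings, weights, a macrophage covariate, a replicate block and each library left out.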

Additional observations from a re-analysis of the deposited data

Results flagged for a closer look

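In 48 groups of 4 or 5 libraries, the gap between 1 library and the rest, divided by the range on the log2(FPKM + 1) scale, exceeded Dixon's 95% value in 4, where chance gives about 1 in 20. For Smad2 in WT the gap was 0.794 of the range, with the library labelled replicate 2 at 1.58 and the others at 2.00 to 2.10. For Smad3 in IL27ra KO it was 0.870, with replicate 4 at 4.18 and the others at 3.26 to 3.38. For Foxp3 in IL27ra KO it was 0.937, with replicate 3 at 1.05 and the others at 0.60 to 0.63. For Tgfb1 over Tgfbr2 in IL27ra KO it was 0.854, with replicate 4 at -3.66 and the others at -2.61 to -2.43.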

How the results depend on the processing

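The count of the 9 genes that passed was 0 under every alternative run except rescaling to the same total, scaling to CD8 T cell markers and weights for library quality, where it was 1 in each (Tgfbr1). With Rn45s left out of the total, chosen after the data were seen, 0 of the 9, 6 of the other pathway genes and 390 of all genes passed. Genes called over all 10374 went from 440 to 6 with the macrophage covariate (limma; 1246 at an unadjusted p under 0.05), 219 among genes of at least 5 FPKM, 1440 with scaling to CD8 T cell markers and 974 with weights. Rescaling to the same total gave 525 higher and 65 lower, and scaling to CD8 T cell markers 1390 higher and 50 lower, against 325 and 115. Leaving out 1 library gave 227 to 639 calls, with 240, 266 and 227 without IL27ra KO replicates 1, 2 and 3, and leaving out the library labelled WT replicate 2 with IL27ra KO replicate 4, chosen after the data were seen, gave 894. Of the other pathway genes 7 passed, against 0 with the macrophage covariate, 11 with the same total, 17 with CD8 T cell scaling, 16 with weights, 15 without those 2 libraries and 5 to 10 without 1 library. The Il27ra difference ran from -1.42 to -0.88 without 1 library (exact permutation p = 0.0286 to 0.143) and was 0.65 with the macrophage covariate. Leaving out 1 library, Smad2 ran from -0.082 to 0.074, Smad3 from 0.093 to 0.67, Smad4 from 0.0035 to 0.26, Ski from 0.019 to 0.31 and Tgfbr2 from -0.48 to 0.052. Skil over Ski ran from -0.0041 to 0.35 and Tgfb1 over Tgfbr2 from -0.34 to 0.18 without 1 library.

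Directions that turned were all of differences that did not pass, save that of Tgfbi. With the macrophage covariate the differences were -1.64 for Tgfbi, 1.61 for Tgfbr2, 0.23 for Smad7 and 0.42 for Foxp3. With the same total they were 0.17 for Tgfbr2 and 0.18 for Smad7, and with CD8 T cell scaling 0.58 for Tgfbr2, 0.56 for Smad7 and 0.34 for Tgfb1. Smad2 was -0.091 with quantile normalization and -0.11 with weights. Without both libraries named above Ski was -0.020, Smad2 -0.15, Smad3 -0.12 and Smad4 -0.047, while Tgfbr2 kept its sign at -0.63. The cause of these changes was not tested.

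The replicate numbers gave no sign of pairing the samples, with correlations of deviations of -0.15 to 0.0027 in the 4 pairs. Of the IL27ra KO libraries 0 of 4 correlated best with their own number. Correlations in 4 pairs cannot exclude a pairing, which the labels do not state. With the number as a replicate block, which in effect leaves out WT replicate 5, 273 genes passed and 0 of the 9, and Klf2 and Nedd9 did not pass (adjusted p = 0.0668 and 0.125). Depths are estimates, so counting error of single values is not known.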

Other observations

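The other ligands of the family were low. Tgfb2 had 0.08 to 0.66 FPKM in IL27ra KO and 0.19 to 0.27 FPKM in WT, and Tgfb3 had 0.43 to 0.68 FPKM in IL27ra KO and 0.25 to 1.36 FPKM in WT. Lrrc32, which encodes GARP, the holder of latent TGF-beta on regulatory T cells, was listed at 0.14, 0, 0 and 0 FPKM in IL27ra KO replicates 1 to 4, against 2.27, 0, 0.45, 0.78 and 0.51 FPKM in WT replicates 1 to 5. These 3 genes were below the filter and were not tested. Foxp3, the defining factor of regulatory T cells, had 0.54, 0.52, 1.07 and 0.55 FPKM in IL27ra KO replicates 1 to 4, against 5.53, 0, 2.56, 1.16 and 4.70 FPKM in WT replicates 1 to 5. It did not pass (log2 change -0.90; limma, adjusted p = 0.369). Without the library labelled WT replicate 2, where both Lrrc32 and Foxp3 were listed at 0, the Foxp3 difference was -1.31 and passed (limma, adjusted p = 0.0382). Leaving out a WT library at 0 widens this difference by itself. Of the 9 fits that left out 1 library, only this 1 passed (adjusted p up to 0.618). These 4 genes were named after their values were seen.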
